A study of Homo sapiens with 12 samples.

Results

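The genes described here are 33 markers and effectors of the mesenchymal and contractile state: transcription factors of the epithelial-mesenchymal transition (EMT), non-collagen matrix proteins and matrix enzymes, and proteins that bind or move actin filaments. Membership was set by gene symbol, with earlier results of these data known, and all 33 symbols had a row among the 62656 genes of the count table. Cells of epithelial origin that undergo EMT lose tight cell-cell contacts and gain motility. Factors of the SNAI, ZEB and TWIST families are known to repress epithelial genes in that process, whereas vimentin, fibronectin and N-cadherin are its usual markers. Contractile force comes from myosin II pulling on actin bundles that filamins and alpha-actinins cross-link and that tropomyosins, calponins, caldesmon and transgelin decorate, and serum response factor (SRF) is a known regulator of many of these genes through a DNA element named the CArG box.

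RNA-seq libraries came from 2 long-established lines of human colorectal cancer cells, HCT116 and LoVo, in 4 groups of 3 libraries. HCT116 was studied as a control, in columns headed as vector, and with overexpression (OE) of the long non-coding RNA SLERT. LoVo was studied as a control, in columns headed ShNC, and with knockdown (KD) of SLERT, in columns headed Sh. No other allele or agent is named, and the labels do not say whether a line with a construct is 1 clone or a pool, or whether replicate libraries were grown as separate cultures. The p-values therefore rest on the spread among these libraries alone, which may be technical.

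The stated question was what SLERT does in liver metastasis of colorectal cancer. As a check of the labels, the ends and host gene of SLERT were read first. SNORA5A had 0 counts in each HCT116 control library and 39, 46 and 57 in the OE libraries, SNORA5C had 4, 4 and 8 against 551, 661 and 714, and 3 of 3 genes of the locus were called higher in OE. In LoVo, SNORA5C had 9, 9 and 19 counts in the control libraries and 11, 14 and 12 in those labelled KD, and the host gene TBRG4 had a log2 fold change of 0.07 ± 0.0608 (SE, edgeR adjusted p = 0.413). No fall of SLERT was thus seen in these columns, and KD below means the libraries labelled so. Total counts ran from 14.46 to 17.23 M per library.

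Levels per gene length are given as FPKM (counts per kilobase of gene and per 1e6 counts), and levels of 1 gene across libraries of a line as CPM (counts per 1e6 counts after TMM scaling). Colorectal epithelial markers (7 genes) summed to 1109 to 1186 FPKM over the HCT116 libraries, to 1741 to 1840 in LoVo control and to 1468 to 1572 in LoVo KD. Most of each sum came from keratins, with KRT8, KRT18 and KRT19 at 374, 185 and 471 FPKM in HCT116 control. The intestinal markers differed between lines. VIL1 averaged 0.0117 FPKM in HCT116 control and 14.6 in LoVo control, and CDX2 6.29 and 62.3. The 8 fibroblast and pericyte markers summed to between 8.04 and 9.8 FPKM in HCT116, nearly all from COL1A1 (8.86 in control), and to 2.08 to 2.37 in LoVo control against 0.519 to 0.599 in KD. The last difference came mostly from COL3A1, at a mean of 1.91 against 0.314 FPKM. The other markers were all near 0 in LoVo. DCN and PDGFRA were at 0.00518 and 0.00483 in control, from 3 and 2 counts in 1 library each, and at 0 in KD. COL1A1 (0.137 against 0.0834), LUM (0.0335 against 0.00847) and FAP (0.00331 against 0.00325) were lower in KD. PDGFRB (0.0947 against 0.103) and RGS5 (0.0168 against 0.0491) were higher. The part of this difference in the LoVo results below was not tested. Summed markers of endothelium were at most 0.454 FPKM, of leukocytes at most 2.17 (LYZ reached a mean of 1.57) and of retina, a tissue named in the protocol text, at most 0.286.

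In the fit of all 12 libraries, 25 of 29 tested members differed between the 2 control lines at an adjusted p under 0.05 (edgeR quasi-likelihood test, Benjamini-Hochberg adjustment), 14 higher in HCT116 and 11 lower. This share is read against 76.6% of all 18199 tested genes, so such differences were common across the genome. The sizes ran from members near 0 in 1 line to abundant members at like levels in both. TGFBI, a secreted adhesion protein, had 40.1, 34.9 and 37.4 FPKM in the LoVo control libraries and 0.015, 0.0305 and 0.0161 in HCT116 control. THBS1, the matrix glycoprotein thrombospondin, averaged 75.2 ± 2.38 FPKM (SD, n = 3) in LoVo control and 1.90 ± 0.116 in HCT116 control, and tenascin (TNC) averaged 5.93 ± 0.578 against 0.00835 ± 0.00724. These 3 matrix genes were abundant in LoVo, and 2 of them, TGFBI and TNC, were near 0 in HCT116.

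The reverse held for other members. FLNC, the filamin best known from muscle, had 25.0, 23.8 and 22.1 FPKM in HCT116 control and 0, 0.0217 and 0.015 in LoVo control. LOXL2, a lysyl oxidase-like enzyme that cross-links matrix, averaged 13.0 ± 0.823 against 0.185 ± 0.0864 FPKM. The EMT factor TWIST1 averaged 1.07 ± 0.150 FPKM in HCT116 control, while 1 count in all stood behind its LoVo control value. CALD1 (caldesmon, 15.4 against 1.61 FPKM), FN1 (fibronectin, 4.32 against 0.438), TPM2 (64.5 against 11.3), CNN3 (50.1 against 11.8), MYL9 (a myosin regulatory light chain, 13.2 against 3.05) and SNAI1 (18.2 against 3.98) were likewise higher in HCT116.

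The log2 difference, HCT116 control minus LoVo control, was 3.36 ± 0.0761 (SE) for CALD1, 2.62 ± 0.0686 for TPM2, -2.46 ± 0.0809 for TPM1 and -4.52 ± 0.25 for VIM. SNAI2, SPARC, CNN2 and TGM2 did not pass, and TGM2 averaged 5.49 FPKM in HCT116 and 5.55 in LoVo control. Smaller differences that passed were those of TPM4 (0.17 ± 0.051), ACTN1 (0.42 ± 0.0606), TAGLN2 (-0.69 ± 0.054), FLNA (-0.79 ± 0.067) and MSN (0.99 ± 0.059). The lines carried different control constructs, so line and construct cannot be told apart here.

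**Figure D1:**
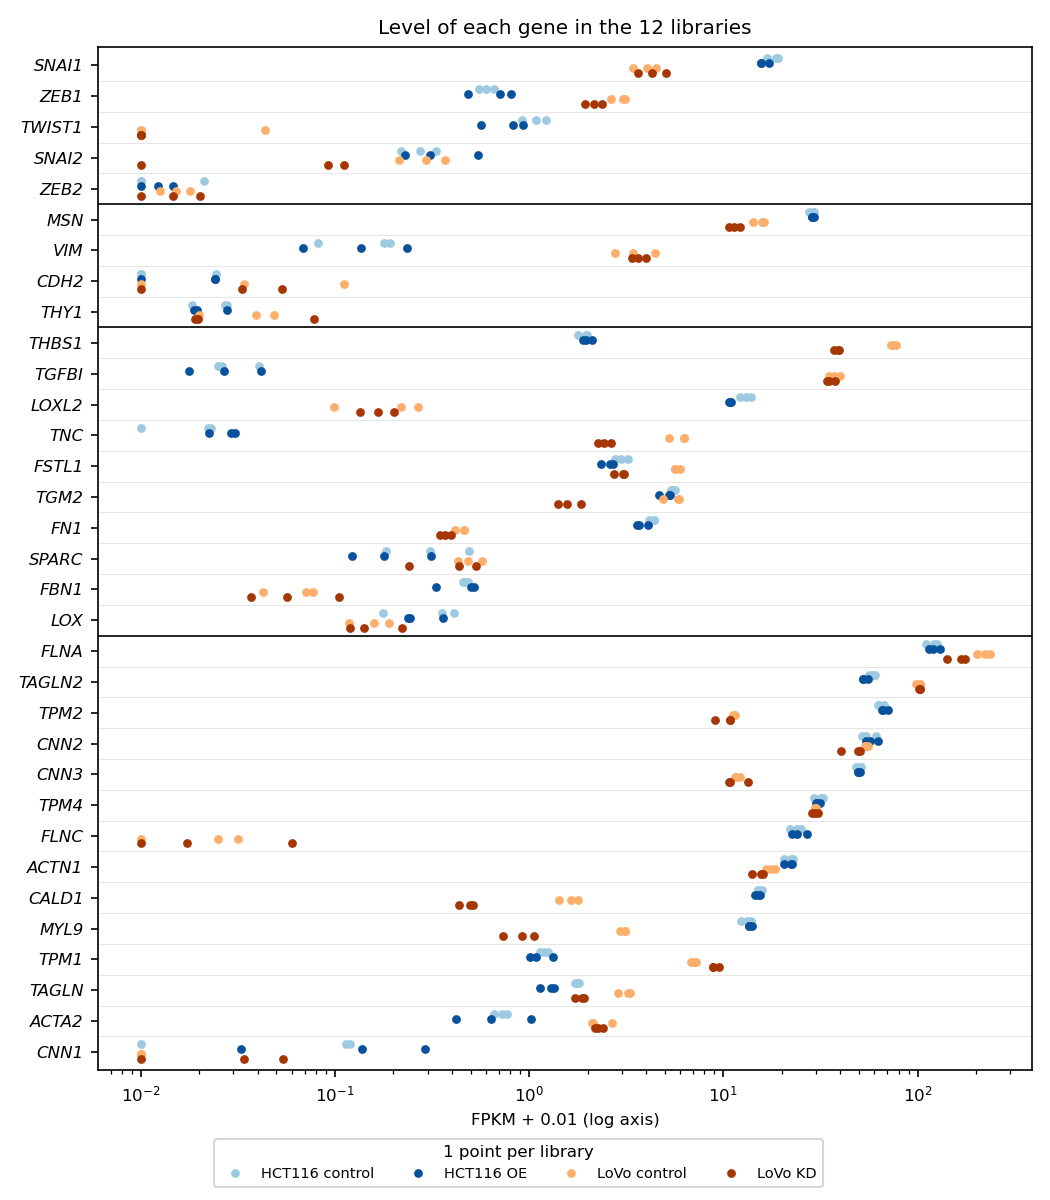
Level of each of the 33 genes (rows, grouped by role from top to bottom: EMT factors, surface and intermediate filament, matrix, actin-binding) in 12 libraries, as FPKM plus 0.01 on a log axis, 1 point per library coloured by group. TGFBI and TNC points of HCT116 lie at the left while those of LoVo lie at the right, FLNC and LOXL2 show the reverse, and the LoVo KD points of CALD1, MYL9, TGM2 and TNC lie to the left of the LoVo control points.

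Within HCT116, SLERT overexpression left no member past the threshold in the main fit. In edgeR, 0 of 27 tested members were called, beside 0.914% of all 15980 genes tested. An unadjusted p under 0.05 was found for 4 of the 27 members and for 2298 of the 15980 genes. DESeq2 called 1 member, LOXL2. With a block for replicate number, edgeR called 3 members lower (FN1, LOXL2 and TAGLN), beside 1322 of the 15980 genes. The median log2 fold change of the members was -0.03, and that of all tested genes -0.002. The members with too few counts to be tested were CDH2, ZEB2, CNN1, TGFBI, TNC and THY1, each with a group mean of at most 0.144 FPKM in this line.

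Transgelin (TAGLN), an actin-bundling protein of contractile cells, had 11.2, 11.5 and 11.7 CPM in HCT116 control and 7.43, 8.47 and 8.82 in OE. The groups did not overlap, with a log2 fold change of -0.48 ± 0.126 (SE, edgeR adjusted p = 0.0642). LOXL2 had 77.9, 82.0 and 73.0 CPM against 64.7, 66.2 and 65.9, again without overlap (-0.24 ± 0.0645, edgeR adjusted p = 0.0643). Without control replicate 3 its edgeR adjusted p was 0.0317. The groups did not overlap for TGM2 and FSTL1 either (edgeR adjusted p = 0.604 and 0.308). The share of genes without overlap was not computed over the genome, so a lack of overlap is description only. FN1 had 75.7, 70.5 and 75.6 CPM against 63.5, 62.0 and 71.1, with overlap (-0.18 ± 0.0675, edgeR adjusted p = 0.209). The other 24 tested members ranged from -0.68 (SPARC) to 0.42 (SNAI2) on the log2 scale.

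Many HCT116 members were measured tightly. TPM4 (-0.00, 95% interval -0.11 to 0.10), CALD1 (-0.01, -0.12 to 0.11), CNN3 (0.01, -0.11 to 0.12), ACTN1 (0.01, -0.10 to 0.13) and MSN (0.04, -0.07 to 0.14) had intervals that leave out changes beyond 0.14 on the log2 scale in either direction. VIM (-1.03 to 0.96) and SNAI2 (-0.40 to 1.24), at 0.141 and 0.265 FPKM in control, were not resolved at this depth.

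In LoVo, 13 of 27 tested members were called between the libraries labelled KD and control, 12 lower and 1 higher in KD. Of all 16253 tested genes, 26.3% were called, 13.7% lower and 12.6% higher. The members' median log2 fold change was -0.20, that of all tested genes 0.000. CDH2, ZEB2, TWIST1, FLNC, CNN1 and THY1 had too few counts to be tested. A lack of overlap between the groups, given below for called members, was also found for members not called. These were FN1, TPM2, TAGLN2 and ACTN1. The share of genes without overlap was not computed over the genome, so a lack of overlap is description only. In bulk RNA, fewer cells of a type and less RNA per cell cannot be told apart.

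**Figure D2:**
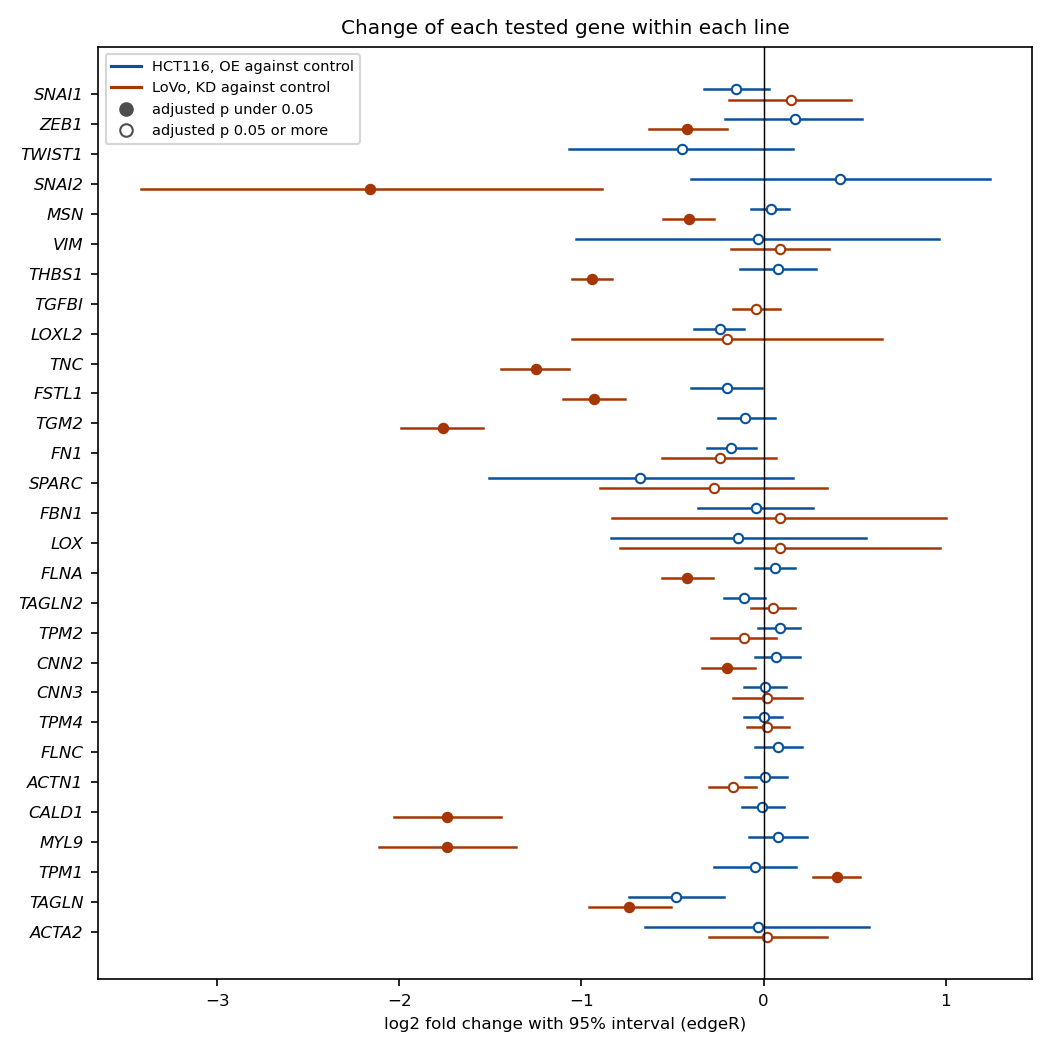
Log2 fold change of each gene tested in at least 1 line (rows), with its 95% interval from edgeR, for HCT116 OE against control (blue) and LoVo KD against control (red); filled points have an adjusted p under 0.05. The HCT116 points are all open, whereas 12 LoVo points are filled to the left of 0 and TPM1 is filled to the right.

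Of the EMT factors, ZEB1 and SNAI2 were lower in KD and SNAI1 was not called. ZEB1, a zinc-finger repressor of E-cadherin (GRCh38 chr10:31318495-31529814, plus strand), had 25.9, 26.7 and 22.6 CPM in control and 18.9, 20.6 and 16.8 in KD. Every KD library lay below every control library, with a log2 fold change of -0.42 ± 0.103 (SE, edgeR adjusted p = 0.00432). SNAI2, the repressor also named Slug, rested on 10, 14 and 17 counts in control and 4, 0 and 5 in KD. It was lower by this test (-2.16 ± 0.613, 95% interval -3.42 to -0.89, edgeR adjusted p = 0.0115), but the call ended without control replicate 3 (adjusted p = 0.0732) and without KD replicate 2 (0.0676). SNAI1, the most abundant EMT factor per length in LoVo, had 7.55, 5.76 and 6.90 CPM against 8.77, 6.29 and 7.34, with overlap (0.15 ± 0.164, edgeR adjusted p = 0.559).

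Among the surface and filament markers, moesin (MSN), which links actin to the membrane, was lower (chrX:65588377-65741931, plus strand). It had 182, 161 and 181 CPM in control and 141, 123 and 130 in KD, with no overlap and a log2 fold change of -0.41 ± 0.0674 (SE, edgeR adjusted p = 9.96e-05). Vimentin (VIM) had 14.1, 17.5 and 22.8 CPM against 17.9, 21.0 and 18.9, and was not called (0.09, 95% interval -0.18 to 0.36, edgeR adjusted p = 0.659). N-cadherin (CDH2) and THY1 were at most 0.0418 FPKM on average in every group, so neither could be followed at this depth.

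Of the 10 tested matrix genes and matrix enzymes, 4 were lower and none was higher. TGM2, transglutaminase 2, which cross-links matrix proteins (chr20:38127387-38166578, minus strand), had 46.5, 38.4 and 46.3 CPM in control and 14.9, 12.6 and 11.2 in KD. The lowest control library was thus above the highest KD library by a wide margin, and the log2 fold change was -1.76 ± 0.108 (SE, edgeR adjusted p = 3.06e-11). TNC (chr9:115019578-115118257, minus strand) had 59.5, 49.9 and 59.7 CPM against 23.5, 21.9 and 25.4, a log2 fold change of -1.25 ± 0.0895 (edgeR adjusted p = 3.70e-10).

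Thrombospondin THBS1 (chr15:39581079-39599466, plus strand) was the most abundant of them, at 703, 661 and 685 CPM in control and 362, 345 and 362 in KD. This is 52.2% of the control mean, with a log2 fold change of -0.94 ± 0.0544 (SE, edgeR adjusted p = 1.10e-11). FSTL1, a secreted glycoprotein of the follistatin family (chr3:120392293-120451253, minus strand), had 49.7, 47.2 and 47.4 CPM against 23.5, 26.0 and 26.3, which is 52.5% of the control mean (-0.93 ± 0.0818, edgeR adjusted p = 1.34e-08). Both genes had spreads within groups that were small against the gap between them.

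TGFBI, also abundant in LoVo, was not called. It had 305, 266 and 288 CPM in LoVo control and 296, 266 and 273 in KD, with a log2 fold change of -0.04 (95% interval -0.17 to 0.09, edgeR adjusted p = 0.670). The remaining tested matrix members, FN1 (-0.24), SPARC (-0.27), LOX (0.09), LOXL2 (-0.20) and FBN1 (0.09), did not pass, and each averaged at most 0.486 FPKM in this line.

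**Figure D3:**
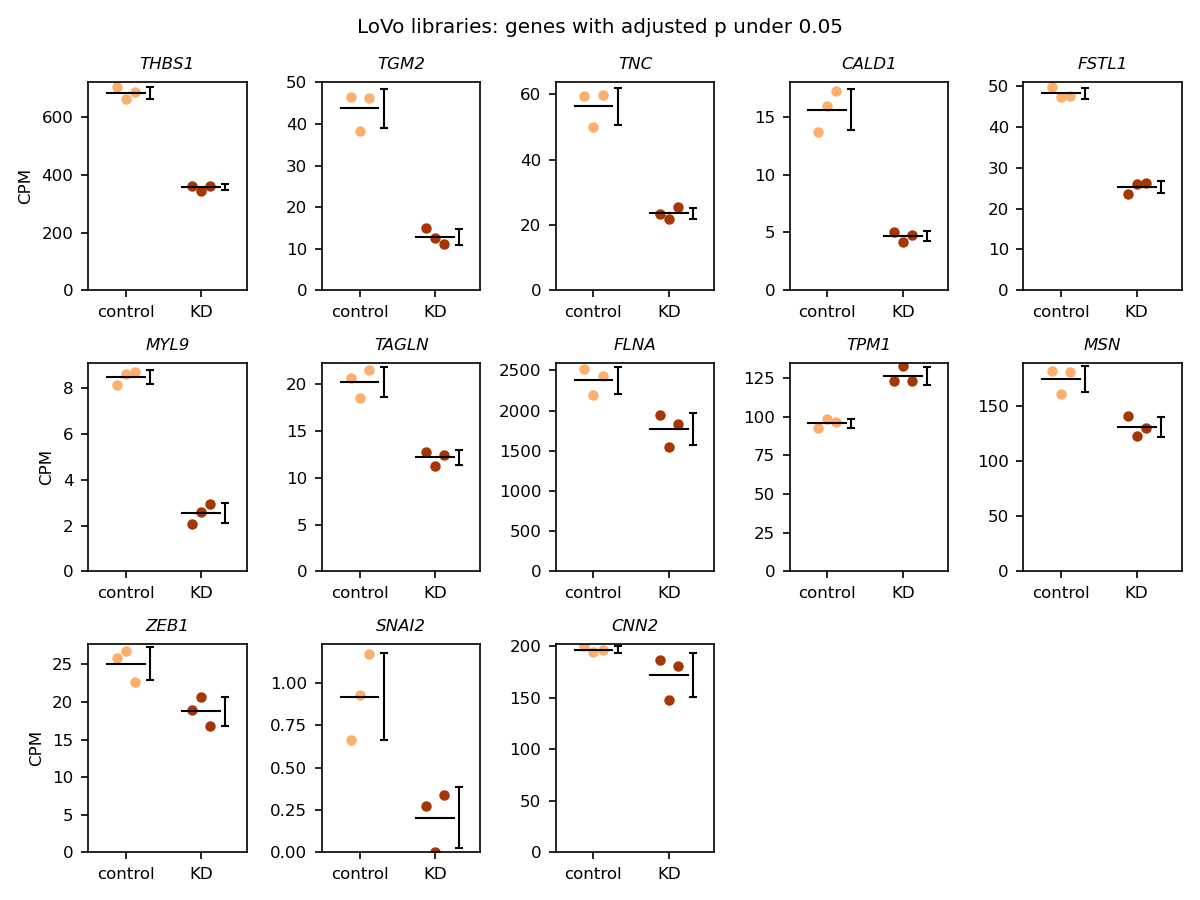
CPM of the 13 genes called in LoVo, 1 panel per gene with its own axis from 0, 1 point per library, a horizontal line at each mean and a bar of 1 SD either side (n = 3 libraries). The control and KD points of each gene do not overlap, which was also so for some members not called. TPM1 is the gene whose KD points are the higher ones.

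The actin-binding and contractile members gave 5 lower calls and 1 higher call among 12 tested. The promoters of all 33 members, not of this class alone, were searched for the CArG box, a known route to contractile genes. RefSeq (GRCh38.p14) gave 48 windows of 300 bases around the starts of 25 members, while SNAI1, SNAI2, TWIST1, TAGLN, MYL9, TGM2, LOXL2 and THY1 had no entry. A CArG box stood in 4 windows of 4 members, 8.33% of the 48 windows, against 1.29% of all 35116 windows. The 100 bases around each match follow, 5′ to 3′ on the gene's strand, with the CArG box in capitals.
ACTN1, chr14:68977683-68977782, minus strand, inside the gene and in no exon: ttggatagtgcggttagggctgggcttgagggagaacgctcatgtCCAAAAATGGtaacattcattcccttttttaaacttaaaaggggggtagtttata
CNN2, chr19:1026474-1026573, plus strand, upstream of the gene: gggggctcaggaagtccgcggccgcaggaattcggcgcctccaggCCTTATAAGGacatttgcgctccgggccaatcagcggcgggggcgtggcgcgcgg
TPM4, chr19:16067320-16067419, plus strand, inside the gene and in no exon: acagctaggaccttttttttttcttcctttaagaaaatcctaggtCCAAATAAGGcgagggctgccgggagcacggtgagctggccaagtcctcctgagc
FLNA, chrX:154374674-154374773, minus strand, upstream of the gene and over an exon of the opposite-strand AC245140.3: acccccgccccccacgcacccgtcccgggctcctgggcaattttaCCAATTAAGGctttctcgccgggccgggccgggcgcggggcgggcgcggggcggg
These matches are a description of the letters and not of binding. SNAI and ZEB factors are known to bind the 6-base element CAGGTG or its reverse complement CACCTG. It stood in 5 windows of 3 members (ZEB1, LOX and TAGLN2), 10.4% of the 48 member windows against 20.6% of all windows.

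Of the 4 members with a CArG box in a window, FLNA and CNN2 were called lower in LoVo KD and ACTN1 and TPM4 were not called. This stands beside 13 of 27 tested members and 26.3% of all tested genes called, and 4 genes are too few to tell a difference. Filamin A (FLNA, chrX:154348524-154374638, minus strand), a large actin cross-linker, had 2519, 2187 and 2423 CPM in control and 1939, 1551 and 1834 in KD (log2 fold change -0.42 ± 0.0663, SE, edgeR adjusted p = 5.64e-05). CNN2, a calponin found outside muscle as well, averaged 197 ± 3.04 CPM (SD, n = 3) in control and 172 ± 20.6 in KD, and its call (-0.20 ± 0.0710, edgeR adjusted p = 0.0447) was lost in DESeq2 (0.0612) and in 5 of 6 fits that left out 1 library. Without KD replicate 2 the log2 fold change of CNN2 was -0.09. ACTN1 had 261, 235 and 250 CPM against 233, 204 and 227 (-0.17 ± 0.0630, edgeR adjusted p = 0.0525). TPM4 differed little (0.02, 95% interval -0.09 to 0.14).

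The largest proportional falls of this class were those of CALD1, MYL9 and TAGLN. Caldesmon (CALD1, chr7:134744252-134970728, plus strand), which binds actin and restrains myosin, had 13.7, 15.9 and 17.2 CPM in control and 5.04, 4.21 and 4.78 in KD. MYL9 (chr20:36541484-36551447, plus strand), the light chain whose phosphorylation activates myosin II, had 8.14, 8.60 and 8.69 CPM against 2.07, 2.58 and 2.96. Both were at about the same fraction of control, 30.0% and 29.9%, with log2 fold changes of -1.74 ± 0.143 (SE, edgeR adjusted p = 3.60e-09) and -1.74 ± 0.180 (1.68e-07). TAGLN (chr11:117199321-117204782, plus strand) had 20.7, 18.5 and 21.5 CPM against 12.8, 11.3 and 12.4, with a log2 fold change of -0.74 ± 0.110 (edgeR adjusted p = 3.07e-05). For these 3 genes no KD library reached the lowest control library, which also held for FN1, TPM2 and ACTN1, not called.

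Tropomyosin 1 (TPM1, chr15:63042632-63071915, plus strand), which coils along actin filaments, was the only member called higher. It had 92.6, 98.3 and 96.6 CPM in control and 123, 133 and 123 in KD (log2 fold change 0.40 ± 0.0636, SE, edgeR adjusted p = 6.46e-05). TPM2 (-0.11), TPM4 (0.02), CNN3 (0.02), TAGLN2 (0.05) and the smooth muscle actin ACTA2 (0.02) did not pass. Within the tropomyosin and calponin families, then, single members were called and their paralogs were not, although a difference between paralogs was not itself tested.

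Shares of each family's summed FPKM show how the lines divide their paralogs. TPM2 made up 49.6% ± 2.07 (SD, n = 3) of tropomyosin FPKM in HCT116 control and 15.7% ± 0.369 in LoVo control, whereas TPM1 made up 0.913% ± 0.0447 and 9.75% ± 0.193. In LoVo KD the TPM1 share was 12.4% ± 0.894. CNN2 and CNN3 were near parity in HCT116 control (52.6% and 47.4%), and CNN2 held 82.2% ± 0.551 in LoVo control. These shares depend on the gene length, since the deposited lengths are those of merged gene models (13765 bases for TPM1). With the length of a principal transcript instead, an alternative added after seeing the data, the TPM2 share was 22.8% in HCT116 control and 5.13% in LoVo control, and TPM1 had 2.23% and 16.9%. TPM3 turned direction between lines, from 25.4% in HCT116 control and 33.2% in LoVo control with the deposited lengths to 47.0% and 43.6%, and it then held the largest tropomyosin share in both. TPM1, TPM2, TPM4, CNN2 and CNN3 kept the direction of their difference between the control lines.

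**Figure D4:**
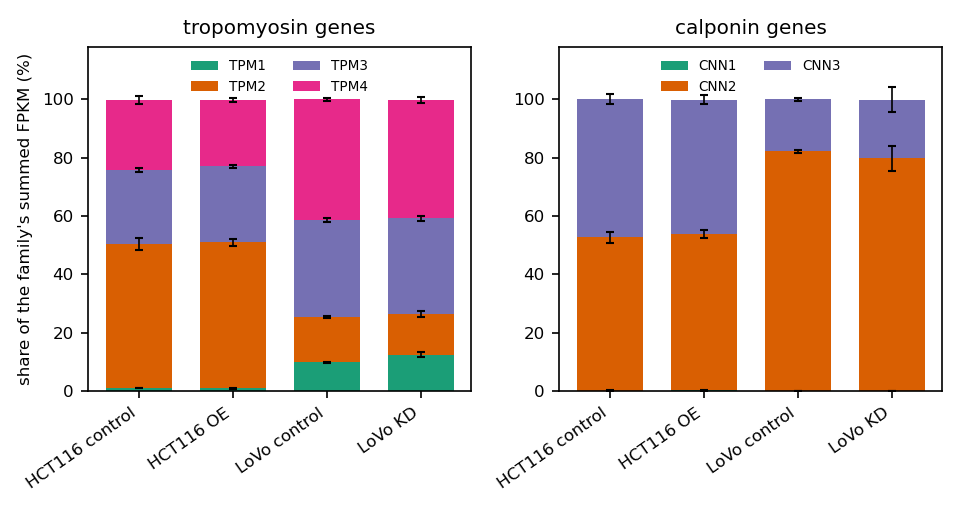
Share of the summed FPKM of the tropomyosin and calponin genes held by each gene (stacked bars, in percent, axis from 0) in the 4 groups, as means of 3 libraries with bars of 1 SD. TPM2 fills about 49.6% of the HCT116 control bar and 15.7% of the LoVo control bar, and CNN2 fills 52.6% and 82.2% of the same bars of its family.

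Several members share exon bases with a gene on the opposite strand, and a strand setting of the counting is not given in the sources used. Their values are uncertain to that extent. TAGLN shares 446 bases with PCSK7, TGM2 394 with RPRD1B, and ZEB1 1326 with ZEB1-AS1. In LoVo KD these neighbours had log2 fold changes of -0.06, -0.01 and 0.14, and none was called. LOXL2 shares 240 bases with ENTPD4 on the same strand (-0.28, edgeR adjusted p = 0.00376 in LoVo), ACTA2 625 with FAS, THBS1 627 with FSIP1, and LOX 138 with SRFBP1. CNN2 has 11 pseudogene copies and TPM4 has 3, to which 121 and 81 counts in all were assigned, beside 36942 and 71021 for the genes themselves.

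The changes with more SLERT, as labelled, were then compared between lines (OE minus control in HCT116 against control minus KD in LoVo). Of 29 members in the fit of 12 libraries, 10 differed, beside 14.6% of all 18199 genes, and 9 of the 10 had the smaller or more negative value in HCT116. For TAGLN the 2 changes had opposite signs, -0.48 in HCT116 and 0.74 in LoVo. It was thus lower in OE than in its control and lower in KD than in its control. Of these only the LoVo change was called in the main fits, and the difference was -1.21 ± 0.163 (SE, edgeR adjusted p = 6.38e-06). CALD1 (-0.01 against 1.74), MYL9 (0.08 against 1.74) and TGM2 (-0.10 against 1.76) had HCT116 values near 0. The differences of FN1 and TPM1 lost their call in 12 and 8 of 17 alternatives respectively. The direction attached to LoVo rests on its KD label, and no fall of the SLERT locus was seen there, where its ends had few counts.

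Other genes of the same pathways were read from 5 further lists in LoVo, against the background of 26.3% called. Of 20 actomyosin regulators, 4 were higher and 6 lower in KD. MYLK, the kinase of the myosin light chain, fell by 0.65 on the log2 scale (SE 0.0865, edgeR adjusted p = 7.16e-06), the actin-severing cofilin CFL1 fell by 0.31, and LIMK2, a kinase of cofilin, fell by 0.34. MYH9, the main non-muscle myosin II heavy chain, fell by 0.25, whereas MYL12A and MYL12B, light chains close in function to MYL9, rose by 0.21 and 0.20. Of 22 actin cross-linkers, adhesion-plaque proteins and SRF-axis genes, 2 were higher and 7 lower, among them PDLIM7 (-0.36), LASP1 (-0.23) and the cytoplasmic actin ACTG1 (0.19). The other cytoplasmic actin, ACTB, went the opposite way (-0.16, edgeR adjusted p = 0.0204), a call lost in 5 of 14 alternatives. MRTFA, a coactivator of SRF, fell by 0.30 (edgeR adjusted p = 0.0215). The regulators' count went from 10 to 6 with limma on either FPKM scale, where MYH9, MYL12A and MYL12B were not called. MYL12A was also lost in 4 and MYL12B in 3 of 6 fits without 1 library: both without control replicates 1 and 3 and KD replicate 2, and MYL12A without KD replicate 3. The count of the cross-linkers went from 9 to 5 without control replicate 1 and to 4 without control replicate 3. It was 6 with limma on either FPKM scale and without KD replicate 2 or 3. MRTFA was lost without control replicate 1 or 3, without KD replicate 2 and with limma on either FPKM scale. LASP1 was lost without control replicate 3, and ACTG1 with limma on either FPKM scale.

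The other mesenchymal and matrix genes gave a different count. Of 24 such genes 13 were tested, 4 were higher and none lower: NT5E (0.70), INHBA (1.18), CCN1 (0.25) and FBLN5 (0.72). INHBA encodes a subunit of activin A, and FBLN5 a protein of elastic fibres. Of 8 other EMT regulators 4 were tested and 2 were lower, TCF4 (-0.60) and TCF3 (-0.29), both E-box binding factors, while PRRX1 (-0.18, edgeR adjusted p = 0.18) was not called. With limma on either FPKM scale, 2 of the 4 mesenchymal calls remained, and CCN1, TCF4 and TCF3 were not called; CCN1 was also lost without control replicate 3, and TCF3 without control replicate 1. The FBLN5 call was lost in DESeq2, on both FPKM scales and in 4 of 6 fits without 1 library, those without control replicates 2 and 3 and KD replicates 2 and 3.

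Of 15 epithelial counterparts in LoVo, 7 were higher and 4 lower in KD, with a median log2 fold change of 0.37 against 0.000 for all tested genes. The tight junction gene CLDN4 rose by 0.73 ± 0.0585 (SE, 290 to 482 CPM on average, edgeR adjusted p = 2.22e-09), the epithelial transcription factor ELF3 by 0.56 and the small GTPase RAB25 by 0.81. EPCAM, CLDN7, ESRP1 and GRHL2 were the other higher calls. E-cadherin (CDH1) was not called in LoVo (0.09 ± 0.0575, SE, edgeR adjusted p = 0.284). The lower ones were the keratins KRT8 (-0.32), KRT19 (-0.32) and KRT18 (-0.16), and ESRP2 (-0.20), so epithelial genes did not move as 1 block. GRHL2 was lost in 6 of 14 alternatives (DESeq2, both FPKM scales, and without control replicates 1 and 3 and KD replicate 1), ESRP2 in 5 (no filter, and without control replicates 1 and 3 and KD replicates 2 and 3) and KRT18 in 2 (without control replicate 3 and KD replicate 3). The 7 colorectal epithelial markers, of which EPCAM, CDH1 and the 3 keratins stand in both lists, gave 1 higher and 5 lower calls with a median of -0.32. Among them the actin-bundling villin VIL1 (-0.54 ± 0.0746, SE, edgeR adjusted p = 1.23e-05) and the intestinal transcription factor CDX2 (-0.48 ± 0.0726, edgeR adjusted p = 3.18e-05) fell.

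**Figure D5:**
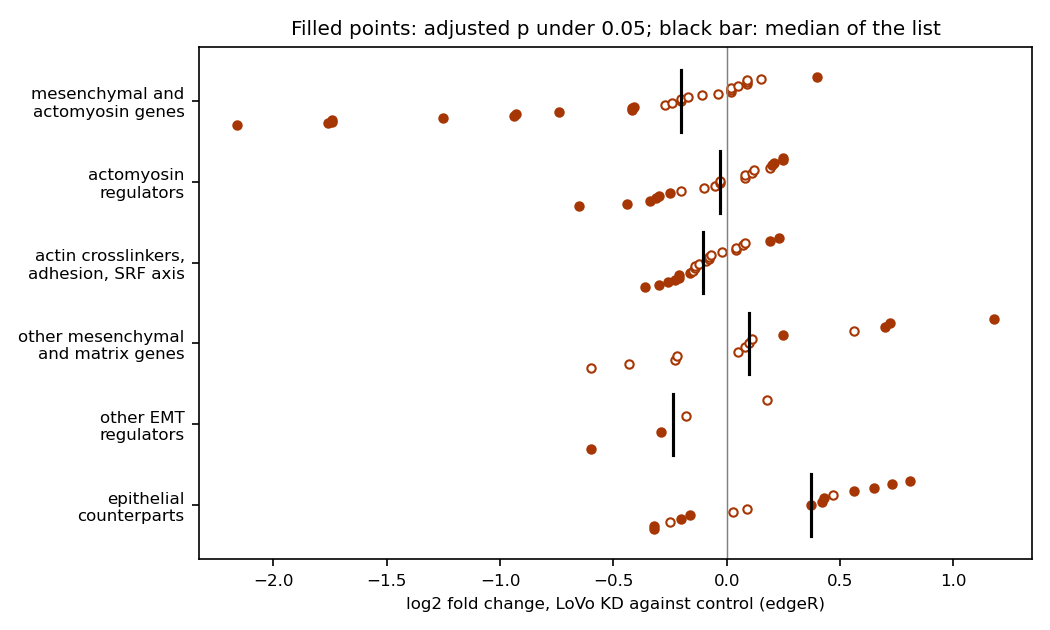
Log2 fold change in LoVo (KD against control) of each tested gene of the 33 genes and of 5 related lists, 1 row per list and 1 point per gene, filled where the edgeR adjusted p was under 0.05, with a black bar at each list's median. The median of the 33-gene list lies at -0.20, that of the epithelial counterparts at 0.37, and the points farthest left belong to the 33-gene list.

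In HCT116 each of these 5 lists gave 0 edgeR calls, beside the background of 0.914%. Unadjusted p was under 0.05 for 2 of 20 actomyosin regulators, 4 of 22 cross-linker and SRF-axis genes and 2 of 14 other mesenchymal genes. The same held for 0 of 3 other EMT regulators and 5 of 15 epithelial counterparts, beside 2298 of all 15980 tested genes. DESeq2 called ACTB of the second list. Without OE replicate 1, MYH14 was called (edgeR adjusted p = 0.0349). The smallest p-values belonged to MYH14 (-0.18), SSH1 (-0.12) and MYL6 (0.17); ACTB (0.15), PDLIM5 (-0.15) and TPM3 (0.12); NT5E (0.23), LOXL4 (-0.47) and FBLN5 (-0.31); KLF8 (-0.35), SNAI3 (0.20) and TCF3 (-0.02); and CDH1 (-0.17), CLDN4 (-0.17) and GRHL2 (-0.23). E-cadherin (CDH1) had an edgeR adjusted p of 0.145 there.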

How the data were processed

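RNA sequencing covered 12 libraries of HCT116 and LoVo. The authors deposited raw whole-number counts per gene by Ensembl identifier and an FPKM table of 38828 genes, whose values equal the deposited counts over gene length and column total. The submitters' processing notes name HISAT2 2.1.0 and GRCh38. The counter, annotation release and strand setting are not given in the sources used. The protocol text speaks of retinas and was not relied on. The HCT116 control columns are headed Vector, the least certain mapping.

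Each line was tested with edgeR 4.0.16 (R 4.3.3; TMM, filterByExpr with a minimum count of 10, quasi-likelihood test, Benjamini-Hochberg adjustment over all genes tested, calls under 0.05), and both lines together for the difference between lines. Alternatives were DESeq2 1.42.0, RLE and upper quartile factors, no filter, a replicate block, all 12 libraries in 1 fit, limma 3.58.1 on log2(FPKM + 1) and log2(FPKM + 0.1), and leaving out each library. The fits were tested on simulated data. Chi-square per degree of freedom ran from 2.4 to 6.63 over the 12 replicate pairs, a spread above that of counting alone. It does not tell whether the libraries were separate cultures. Each library was counted as 1 replicate.

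The 33 genes and all lists were chosen with earlier results of these data known. Every gene of the 33 is named with its level or change; library values are given for the 12 called with the smallest adjusted p in either line, and the 3 genes with the smallest p are named for each further list and line. SNAI1, TGFBI, FLNC, VIM, FN1, LOXL2, ACTN1, the other lower-level values and further called list genes were added to that rule after their values were seen. A further gene of these lists is not reported here. Coordinates are from GENCODE v29 on GRCh38. Intervals and SEs are from edgeR.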

Additional observations from a re-analysis of the deposited data

Results flagged for a closer look

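A difference between the lines in the change with more SLERT, as labelled, drew attention to 10 of the genes by the test of the difference itself in all 12 libraries. Each value is the log2 change in HCT116 (OE minus control) minus that in LoVo (control minus KD), with its standard error and edgeR adjusted p. Among contractile genes it was -1.75 ± 0.128 for CALD1 (1.04e-10), -1.66 ± 0.172 for MYL9 (1.04e-07), -1.21 ± 0.163 for TAGLN (6.38e-06), -0.37 ± 0.0943 for FLNA (0.0092) and 0.35 ± 0.116 for TPM1 (0.0397). Among matrix genes it was -1.86 ± 0.135 for TGM2 (8.43e-11), -1.13 ± 0.122 for FSTL1 (1.78e-07), -0.86 ± 0.0935 for THBS1 (2.23e-07) and -0.42 ± 0.143 for FN1 (0.0457). MSN had -0.37 ± 0.0833 (0.0029). FN1 is the only one of the 10 that passed in neither line alone in the main fits. The groups of 3 libraries are too small for a test of single outlying libraries.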

How the results depend on the processing

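Of the 13 LoVo calls, 11 held in each of the 14 alternatives, CNN2 and SNAI2 being the exceptions, and the count ran from 11 to 14. CNN2 was lost in 9 alternatives and SNAI2 in 2 fits without 1 library, and DESeq2 gave SNAI2 no adjusted p. The HCT116 count of 0 became 1 with DESeq2 and 3 with the replicate block, and ran from 0 to 1 without single libraries; the 1 was LOXL2. The difference between lines had 8 to 10 calls, FN1 and TPM1 being the ones lost, and that between control lines 25 to 28; without HCT116 control replicate 3, LOX was lost and CNN2 gained.

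Over all genes, HCT116 calls went from 146 to 281 with DESeq2, 256 with no filter, 7 with either FPKM scale and 37 to 287 without 1 library, the 287 without control replicate 3. LoVo calls went from 4278 to 2845 and 2866 on the FPKM scales, 966 and 980 of them higher, and to between 2769 and 4813 without 1 library. Upper quartile factors turned the HCT116 split of 81 higher and 65 lower into 59 and 82. The causes were not tested.

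Values of 2 genes near 0 changed sign. TCF3 in HCT116 ranged from -0.08 to 0.02 without single libraries, with 0.01 without control replicate 1 and 0.02 without OE replicate 2. SNORA5C in LoVo was 0.01 with the replicate block, 0.02 and 0.04 on the FPKM scales, 0.45 without control replicate 3 and 0.02 without KD replicate 1, in a range of -0.21 to 0.45 without single libraries.

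Same-numbered libraries were not treated as pairs in the main fits. Their deviations correlated at 0.034 to 0.047 in HCT116 and 0.016 to 0.085 in LoVo. Each of the 6 libraries of a line nevertheless correlated best with its own number. Whether they are pairs was thus not settled, and the calls depend on it. The replicate block gave 3 members in HCT116 (FN1, LOXL2 and TAGLN), 14 in LoVo, 10 for the difference and 26 for the control lines, and 1322 and 5588 genes over the genome. For the further lists in HCT116, where the report gives 0, it called 3 actomyosin regulators (MYH14, MYL6, SSH1), 4 cross-linker and SRF-axis genes (ACTB, ACTG1, PDLIM5, TPM3), 1 other mesenchymal gene (NT5E), 0 other EMT regulators and 5 epithelial counterparts (CDH1, CLDN4, GRHL2, KRT18, KRT8), with CDH1 at an adjusted p of 0.0135.

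Depth limits members under about 1 FPKM: SNAI2, SPARC, LOX and FBN1 have wide intervals, and 4 members were tested in neither line.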
